A study of Rattus norvegicus with 15 samples.

Results

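miR-221 and miR-222 are a pair of microRNAs (miRNAs) made from neighbouring hairpins on the rat X chromosome. They were taken as the 2 of 350 miRNAs on the array whose systematic name is miR-221 or miR-222. Their signal was measured in rat liver on 15 single-colour miRNA arrays. Each array was loaded with RNA pooled from 4 animals. The livers came from rats fed an ethanol diet over a long period (EtOH) or pair-fed a control diet with carbohydrate in place of ethanol (CHO). Tissue was frozen at partial hepatectomy (PHx, surgical removal of part of the liver, which starts regeneration) or later. The groups were 3 EtOH pools and 4 CHO pools before PHx, and for each diet 1 pool at each of 1, 6, 12 and 24 h after PHx. Per the animal identifiers in the labels, the same 4 animals were on an array before and on an array after surgery for 7 pools, and in each diet the pools at 1 h and 6 h had 1 animal in common. No time after PHx had replicates within a diet, and sham-operated animals were not analysed here. The p-values below measure the spread between pools and not between animals. In the fits that share a diet term over the times after PHx, it includes any change of the diet difference between times.

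A miRNA guides silencing complexes to messenger RNAs through bases 2 to 8 of its mature strand, the seed. In human cells miR-221 and miR-222 lower the Cdk inhibitors p27 (CDKN1B) and p57 (CDKN1C), which hold cells out of the division cycle, and both miRNAs are often high in human liver tumours. In liver regeneration after hepatectomy the pair has been studied for that link to the cell cycle. The messenger RNAs of the inhibitors were not measured on these arrays.

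The sequences below are shown because the pair shares its seed, so that both strands can address the same target sites, while the rest of each strand differs. They come from RefSeq (GRCr8). The seed is in capitals. The array names miR-221 and miR-222 carry no arm, and the 3p strand is shown because older nomenclature gave the plain name to it. MiR-221 lies at chrX:6023246-6023268 and miR-222 at chrX:6022682-6022702, both on the plus strand.
rno-miR-221-3p: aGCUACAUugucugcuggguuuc
rno-miR-222-3p: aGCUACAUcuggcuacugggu
The first 8 bases of both strands are identical, and 11 of the 21 positions that can be compared from the 5′ end are. Of the 693 mature rat miRNA names in the RefSeq table, 2 have this seed, and these are the pair itself. Of the 350 miRNA names on the array, 255 were found in that table, and the same 2 were the ones with the seed in either arm. The passenger strands have different seeds, here again in capitals.
rno-miR-221-5p: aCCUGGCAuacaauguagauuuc
rno-miR-222-5p: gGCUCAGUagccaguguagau
The array holds no separate entry for a passenger strand of either miRNA.

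The hairpins are shown to place both mature strands, with the 3p strand in capitals. The miR-221 hairpin spans chrX:6023182-6023290 (109 bases) and the miR-222 hairpin chrX:6022621-6022723 (103 bases). They are 458 bases apart and together cover 670 bases.
rno-mir-221: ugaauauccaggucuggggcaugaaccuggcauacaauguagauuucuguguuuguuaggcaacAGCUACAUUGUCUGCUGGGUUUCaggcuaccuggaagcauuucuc
rno-mir-222: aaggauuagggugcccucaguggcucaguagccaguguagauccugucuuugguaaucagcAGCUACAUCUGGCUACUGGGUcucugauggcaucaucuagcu
In both hairpins the 3p strand lies in the arm after the loop. In the RefSeq gene table the spans of 2 uncharacterised long non-coding RNA genes, LOC120099382 and LOC120099384, also overlap this stretch. The table gives gene spans only, so whether the hairpins are exonic or intronic there was not determined.

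The pair was split by detection. MiR-221 was detected on all 15 arrays, and miR-222 was detected on 0 of 15. Each miRNA had 2 probes of 10 spots, hence 20 spots per array and 300 over all arrays. Detection on an array needed 0.5 or more of the spots of the miRNA's brighter probe to be called well above background by the scanner software. For miR-221, 294 of 300 spots were well above background. The 6 that were not all lay on the third EtOH array before PHx, where 14 of 20 passed. For miR-222, 0 of 300 spots passed.

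MiR-222 could not be told from the arrays' negative control spots. The negative controls, of which 654 to 669 spots were used per array, averaged 0.319 to 1.35 intensity units with an SD of 1.52 to 2.03. For miR-222 the higher of the 2 probe signals was taken on each array, whichever probe gave it. It was 1.12, 1.58 and 0.425 units on the EtOH arrays before PHx, against 2.47, 3.70, 2.29 and 1.32 units on the CHO arrays before PHx. After PHx it was 1.56, 1.25, 3.77 and 2.48 units on the EtOH arrays at 1, 6, 12 and 24 h. On the CHO arrays at the same times it was 1.23, 2.50, 3.12 and 2.34 units. Over both probes and all arrays the signal lay between -0.345 and 3.77 units. That is -0.64 to 1.68 SD of the negative control spots away from their mean, and at most 0.371 of the lowest signal that counted as detected on the same array. The groups overlapped, and values below background have no order, so no fold change or test is given for miR-222. With a share of 0.25 or 0.75 of the spots as the limit, and by the software's own detection call, it was likewise detected on 0 of 15 arrays. The plot of both members against the negative controls shows the gap.

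**Figure D1:**
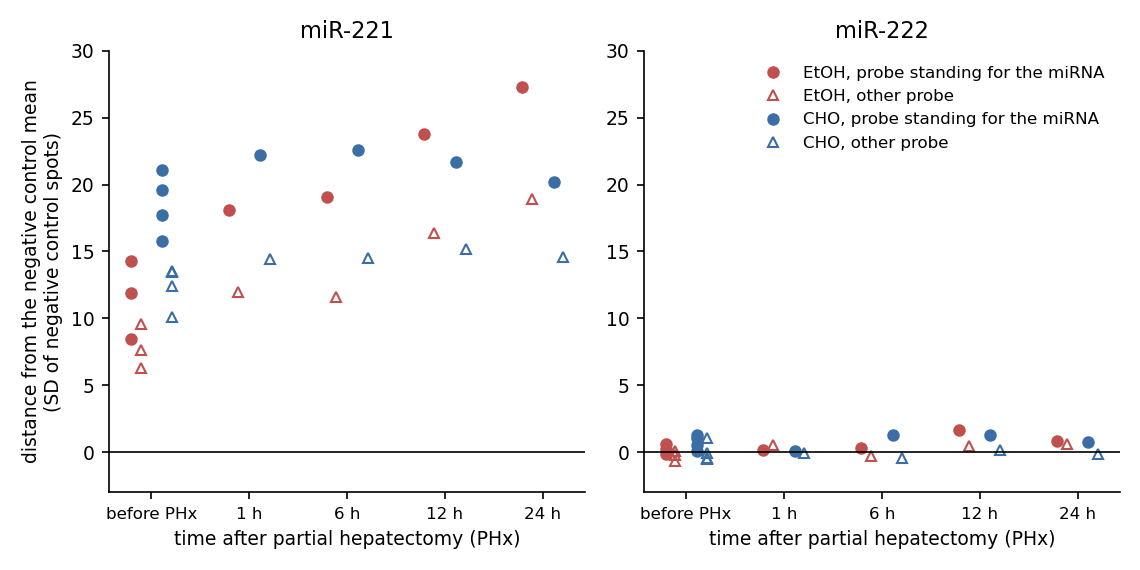
Distance of each probe of miR-221 (left) and miR-222 (right) from the mean of the array's negative control spots, in SD of those spots, by time after PHx, for EtOH and CHO arrays. The miR-221 probes lie 6.27 to 27.3 SD above the negative controls, and the miR-222 probes between -0.64 and 1.68 SD.

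Different probes bind and label with different efficiency, so the levels of the members were not set against each other. The limit for miR-222 is one of array sensitivity: a level below it was not detectable here.

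MiR-221 rose after PHx over both diets together, and before PHx it was lower in EtOH livers than in CHO livers. Values are scaled signals, that is, intensities divided by a 75th percentile, taken on each array from the 185 probes that every array detected, and brought back to the mean intensity scale. In EtOH livers before PHx it was 25.8, 21.8 and 25.2, or 24.3 ± 2.16 (SD, n = 3). In CHO livers before PHx it was 28.8, 30.5, 32.9 and 30.3, or 30.7 ± 1.70 (SD, n = 4). All 3 EtOH arrays before PHx lay under all 4 CHO arrays before PHx, the second EtOH pool lowest.

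After PHx the EtOH arrays had 31.2 at 1 h, 34.6 at 6 h, 38.5 at 12 h and 37.5 at 24 h. The CHO arrays had 34.9 at 1 h, 38.0 at 6 h, 36.6 at 12 h and 39.5 at 24 h. Within each diet every array after PHx lay above every array before PHx, and across the diets the EtOH 1 h array (31.2) lay under the highest CHO array before PHx (32.9). After PHx the diets overlapped. The 4 times averaged 35.4 ± 3.30 in EtOH and 37.2 ± 1.96 in CHO, where the SD is over times and not over replicates.

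**Figure D2:**
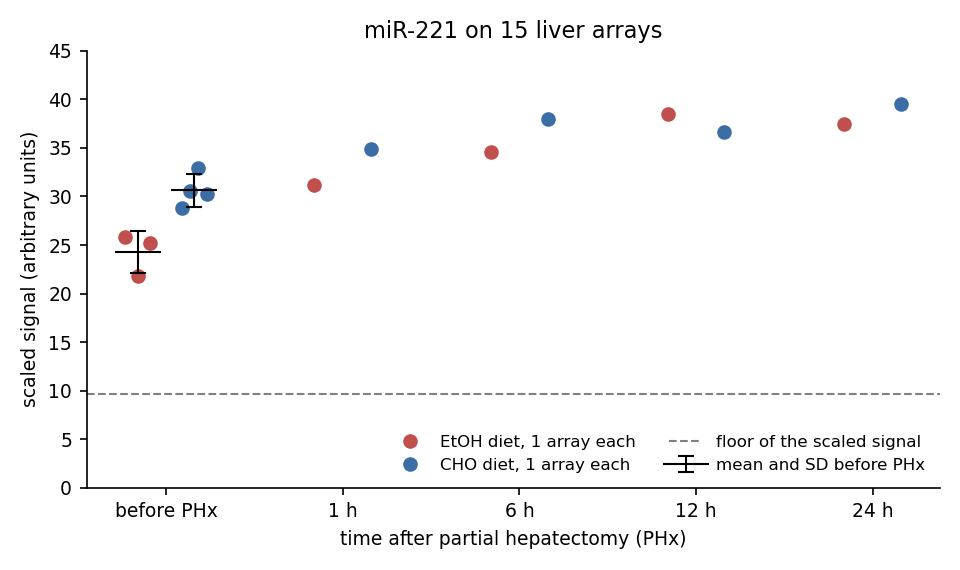
Scaled signal of miR-221 on each of the 15 arrays by time after PHx, EtOH left and CHO right, with the mean and SD of the groups before PHx and the floor of 9.61. The EtOH arrays before PHx (21.8 to 25.8) lie under all other arrays, and the arrays after PHx reach 31.2 to 39.5.

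In order of level, EtOH before PHx was lowest, followed by CHO before PHx, EtOH 1 h, EtOH 6 h, CHO 1 h, CHO 12 h, EtOH 24 h, CHO 6 h, EtOH 12 h and CHO 24 h. The step between EtOH and CHO before PHx was 6.39 units, or 2.96 times the larger of the SDs of these groups (2.16). The step between EtOH 1 h and EtOH 6 h was 3.42 units, 1.58 times that SD, and rests on 1 array each. Each of the other 7 steps between neighbours was 0.296 to 1.76 units and so under that SD. The 7 highest levels thus have no settled order.

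MiR-221 was a dim signal, at 2.27 to 4.11 times the floor of 9.61, to which lower scaled signals were raised before the fits. The 10 spots of its brighter probe varied by a median coefficient of variation of 8.15%. The exception was the third EtOH array before PHx at 67.7%, where the next highest array had 13.1%. That array stood apart in general. Over the same 185 probes its median coefficient of variation was 36.6%, against 6.75% to 8.62% on the others, and its 75th percentile of probe signal was the lowest, at 236 of a range of 236 to 516. The fitted differences of miR-221 with EtOH livers before PHx or with both diets before PHx are given with and without it.

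The second miR-221 probe gave the same picture. Its scaled signal was 14.8 to 18.8 in EtOH and 19.7 to 23.0 in CHO livers before PHx, which did not overlap. After PHx it was 20.9 to 26.8 in EtOH and 23.0 to 28.9 in CHO. Across the 15 arrays the log2 signals of the probes had a Pearson correlation of 0.960. The probes share the array, the RNA and the scaling, so this describes how well the spots repeat and adds no independent animals. All 24 log2 differences fitted for miR-221 had the same sign in both probes. The authors' deposited table gave miR-221 4.67 to 4.89 in EtOH and 4.98 to 5.30 in CHO livers before PHx on its log2 scale, and 5.07 to 5.36 in EtOH and 5.13 to 5.41 in CHO livers after PHx. For miR-222 the authors' deposited table lists 0.00824 to 1.90.

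Differences were tested with limma across the 134 miRNAs detected on at least 3 arrays, with Benjamini-Hochberg adjustment over all of them, and an adjusted p under 0.05 counted as passing. MiR-221 was among the 134, and miR-222 was not. In pooled whole liver, fewer cells of a type that carries a miRNA and less of it per cell cannot be told apart.

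The time course asks how miR-221 followed the onset of regeneration. Over both diets, miR-221 averaged over the 4 times after PHx was higher than before PHx by 0.41 on the log2 scale (95% interval 0.29 to 0.54), a 1.33-fold difference with an adjusted p of 0.000586 (limma). In this comparison 6.72% of the 134 miRNAs passed, 9 in all and each of them higher, and miR-221 had the sixth largest rise. Without the third EtOH array before PHx the difference was 0.43 (adjusted p 0.000725). The call also held with slide as a block (0.41, adjusted p 0.000736) and with the pool of animals as a block (0.42, adjusted p 0.0250). It was lost with the normexp background correction, at 0.068 with 1 background value per array, where miR-221 lay 0.098 above the median of all miRNAs. With local background normexp gave 0.19, with miR-221 0.11 above that median. That version raised the negative controls on the third EtOH array before PHx and on the CHO 24 h array, and its values for contrasts with these arrays are not usable.

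By single time, the difference from before PHx was 0.28 at 1 h (95% interval 0.09 to 0.47) and did not pass, with an adjusted p of 0.572. At 1 h 0% of miRNAs passed with limma. An unadjusted p under 0.05 was found for 4, of which miR-221 had the second lowest. With no filter on dim miRNAs miR-221 passed at 1 h (adjusted p 0.0479), and without the third EtOH array before PHx it was 0.29 and did not pass (adjusted p 0.647). At 6 h miR-221 rose by 0.41 (SE 0.0868, adjusted p 0.0188), where 4.48% of miRNAs passed. At 12 h it rose by 0.46 (SE 0.0868, adjusted p 0.00491), where 5.97% passed. At 24 h it rose by 0.50 (SE 0.0868, adjusted p 0.00229), a 1.41-fold difference, where 13.4% passed. The 4 times share the same 7 arrays before PHx, so they are not independent of each other.

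These single-time calls rest on 2 arrays per time. They did not hold with the pool as a block that has its own level, a fit with 2 residual degrees of freedom. There the differences were 0.49 at 6 h (adjusted p 0.143), 0.38 at 12 h (adjusted p 0.217) and 0.52 at 24 h (adjusted p 0.291). With the pool as a random block, where arrays of a pool share a correlation of 0.114, the calls at 6, 12 and 24 h held. At 6 h the call was lost without either 6 h array (adjusted p 0.158 without EtOH, 0.325 without CHO). At 12 h it was lost without the EtOH array (0.37, adjusted p 0.137). At 24 h miR-221 passed whichever of the 15 arrays was left out. Without the third EtOH array before PHx it was 0.43 at 6 h, 0.48 at 12 h and 0.51 at 24 h, and passed at each. The 1 h and 6 h pools were on one slide and the 12 h and 24 h pools on the other. Within slide 1 the 6 h difference was 0.45 (adjusted p 0.0191), and within slide 2 the 12 h and 24 h differences were 0.41 (adjusted p 0.142) and 0.45 (adjusted p 0.0723). With slide as a block all 3 passed, at 0.45, 0.41 and 0.45.

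Between the times after PHx no step was large enough to pass. MiR-221 differed by 0.14 for 6 h minus 1 h (adjusted p 0.756), by 0.05 for 12 h minus 6 h (adjusted p 0.963) and by 0.03 for 24 h minus 12 h (adjusted p 0.870). In each of these comparisons 0% of the 134 miRNAs passed with limma, and 12, 9 and 19 had an unadjusted p under 0.05. From 1 h to 24 h the difference was 0.22 (95% interval -0.01 to 0.46, adjusted p 0.272), where 6.72% passed. That interval is one of the main fit, which takes no account of slide, and the 1 h and 24 h arrays were on different slides. Other settings gave 0.088 to 1.07, the highest with local background normexp, which is not usable for the CHO 24 h array. The data do not show whether miR-221 went on rising after the first hour.

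The plot of differences by time and diet gives the fitted values with their intervals.

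**Figure D3:**
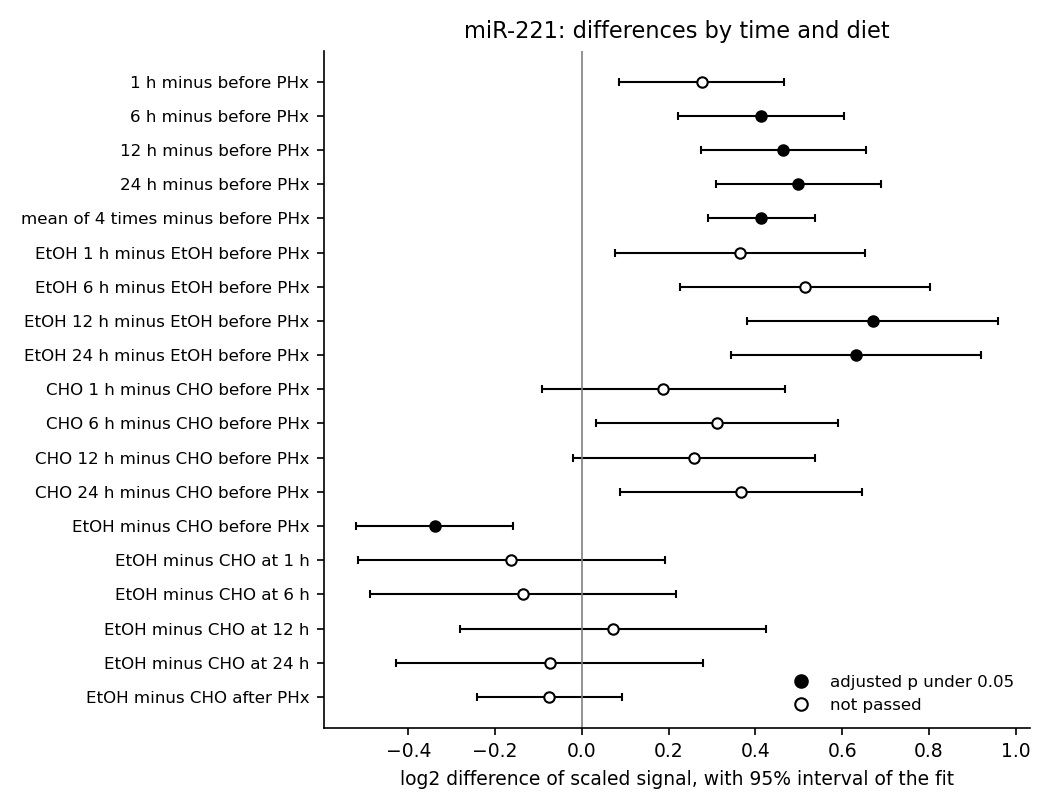
Log2 differences of miR-221 scaled signal with 95% intervals of the limma fits, after minus before PHx over both diets and within each diet, and EtOH minus CHO before PHx, at each time and over the times after PHx. Filled points passed at an adjusted p under 0.05, which holds for 6, 12 and 24 h, the mean of the times, EtOH at 12 and 24 h, and diet before PHx.

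The arrays of the same animals before and after PHx gave the most direct comparison. The tissue taken at surgery and the tissue taken later are different parts of the same livers. Part of the liver and time since surgery therefore cannot be told apart. MiR-221 was higher after PHx in 7 of 7 pools. In EtOH pools the log2 difference was 0.27 at 1 h, 0.67 at 6 h and 0.61 at 12 h. In CHO pools it was 0.27 at 1 h, 0.31 at 6 h, 0.15 at 12 h and 0.38 at 24 h. The EtOH pools thus gave the pair of highest values, at 6 and 12 h, and at 1 h the diets were alike to 2 decimals. The mean was 0.38 ± 0.19 (SD, n = 7), with an exact two-sided sign-flip permutation p of 0.0156, which is the smallest that 7 pools can give. With 1 pool left out in turn the mean lay between 0.33 and 0.42, and it was 0.34 without the EtOH 12 h pool, whose array before PHx is the third EtOH array. The animal shared by the 1 h and 6 h pools of a diet makes these pools less than fully independent. The count of 7 of 7 did not hold under every scaling. MiR-221 was higher in 6 of 7 pools under quantile normalization (mean 0.24, exact permutation p 0.0625). The same count was found with the percentile over all probes (0.27), without scaling (0.44) and in the authors' deposited table's values (0.24), each with an exact permutation p of 0.0469. It was higher in 5 of 7 pools under both versions of normexp, with means of 0.27 with local background and 0.092 with 1 background value per array (exact permutation p 0.578 and 0.344).

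**Figure D4:**
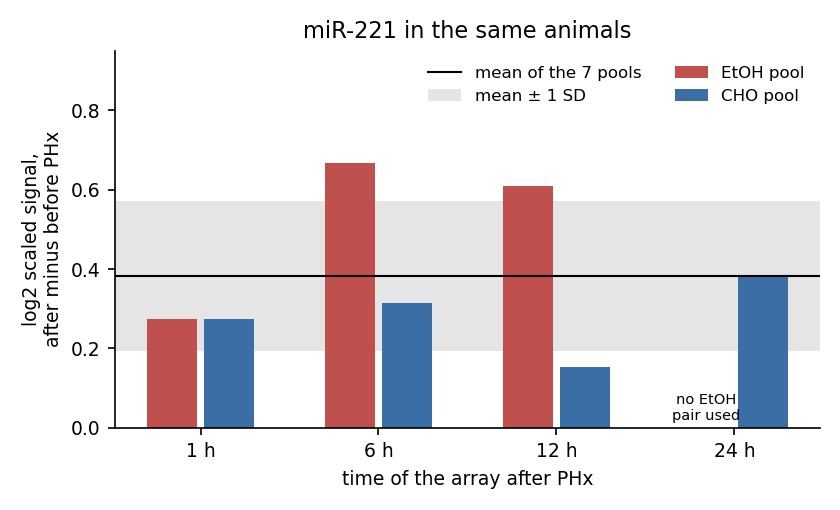
Log2 scaled signal of miR-221 after PHx minus before PHx in the same 4 animals, for 3 EtOH pools and 4 CHO pools by the time of the later array, with the mean of the 7 pools and 1 SD. All 7 bars lie above 0, between 0.15 and 0.67.

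Each diet's own course came from a fit of the 10 cells of diet and time, in which a lone pool after PHx is taken to spread as much as the pools before PHx do. In EtOH livers miR-221 differed from EtOH before PHx by 0.36 at 1 h (adjusted p 0.928) and by 0.52 at 6 h (adjusted p 0.0970). It rose by 0.67 at 12 h (adjusted p 0.0348) and by 0.63 at 24 h (adjusted p 0.0350), or 1.59-fold and 1.55-fold. The shares of miRNAs that passed at these times in EtOH livers were 0%, 1.49%, 5.97% and 7.46%, and at 1 h 3 had an unadjusted p under 0.05. The 12 h call was lost without any one of the 7 arrays before PHx (adjusted p 0.0541 to 0.0922). Without the third EtOH array the differences were 0.39 at 1 h, 0.54 at 6 h and 0.70 at 12 h (adjusted p 1, 0.144 and 0.0583). The 24 h call was lost without any one of 4 of them, the third EtOH array included (0.66, adjusted p 0.0634).

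In CHO livers miR-221 was 0.19 above CHO before PHx at 1 h, 0.31 at 6 h, 0.26 at 12 h and 0.37 at 24 h. None of these passed, with adjusted p between 0.171 and 0.960. The shares that passed in CHO livers were 0.746% at 1 h, 0.746% at 6 h, 6.72% at 12 h and 5.22% at 24 h. A larger rise in EtOH livers was tested as the diet difference after PHx minus the diet difference before PHx. For miR-221 this was 0.26 (95% interval 0.02 to 0.51), with an unadjusted p of 0.0380 and an adjusted p of 0.623, and without the third EtOH array before PHx it was 0.29 (adjusted p 0.910). In that comparison 0% passed with limma, and an unadjusted p under 0.05 was found for 9 miRNAs. The courses of the diets are therefore not shown to differ.

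The diet comparison before PHx asks how miR-221 stood under long ethanol feeding before surgery. EtOH livers had 0.79 of the CHO level, a log2 difference of -0.34 (95% interval -0.52 to -0.16, adjusted p 0.0167, limma). In this comparison 15.7% of miRNAs passed, 4 higher and 17 lower in EtOH, and the median over all 134 was -0.08. Without the third EtOH array the difference was -0.37 (adjusted p 0.0197). Without the second EtOH array, which had the lowest miR-221, it was -0.26 and did not pass (adjusted p 0.0607). The difference was -0.32 within slide 1 (adjusted p 0.0525), -0.32 within slide 2 (adjusted p 0.282), where the third EtOH array is the only EtOH array before PHx, and -0.32 with slide as a block (adjusted p 0.0198). It was -0.28 with the percentile taken over all probes (adjusted p 0.242) and -0.30 in the authors' deposited table's values fitted the same way (adjusted p 0.0668). With normexp and 1 background value per array it was 0.20 (SE 0.117) and did not pass. The median of all miRNAs was 0.19 there, and miR-221 lay 0.0058 from it, so under that correction neither direction is shown for miR-221 relative to the other miRNAs. With normexp and local background it was 0.46, beside a median of 0.36, and this value rests on the third EtOH array and is not usable.

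After PHx the diets did not differ detectably in miR-221. Over the 4 times EtOH minus CHO was -0.08 (95% interval -0.24 to 0.09, adjusted p 0.557), where 7.46% of miRNAs passed. Its sign turned under 4 other settings, in which the median of all miRNAs was -0.00043 to 0.19, beside -0.05 here. Relative to that median miR-221 lay between -0.030 and 0.037 in them, beside -0.024 here. At single times it was -0.16 at 1 h, -0.14 at 6 h, 0.07 at 12 h and -0.07 at 24 h, with adjusted p between 0.674 and 0.982. The shares that passed were 0.746%, 0%, 3.73% and 0%. Where 0 passed with limma, at 6 h and 24 h, 18 and 7 miRNAs had an unadjusted p under 0.05. With 1 array on each side the 95% intervals were wide, at -0.52 to 0.19, -0.49 to 0.22, -0.28 to 0.42 and -0.43 to 0.28. Those at 1, 6 and 24 h include the value seen before PHx (-0.34).

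The miRNAs whose pattern was most like that of miR-221 were found by the Pearson correlation of log2 scaled signal over the 15 arrays with each of the other 133 tested miRNAs. They were miR-345-5p (0.816), miR-20a (0.790), miR-21 (0.783), miR-17 (0.755) and miR-10b (0.736), where the median over the 133 was 0.218. The points share arrays, scaling and the steps between groups, so these values are a description. Over the 7 arrays before PHx alone the correlation with miR-221 was 0.905 for miR-345-5p, 0.884 for miR-20a, 0.856 for miR-10b, 0.796 for miR-17 and 0.0915 for miR-21. Over the 8 arrays after PHx it was 0.645 to 0.887 for the 5. MiR-21, a miRNA much studied in liver regeneration, thus followed miR-221 across surgery but not among the arrays before it, where the diets separate miR-221 (-0.34) and not miR-21 (-0.01). MiR-20a, of the miR-17-92 polycistron, was like miR-221 in both respects: it was lower in EtOH before PHx by 0.63 (adjusted p 8.57e-05) and higher at 24 h by 0.65 (adjusted p 6.94e-05). After PHx miR-20a was still lower in EtOH by 0.44 (adjusted p 0.00129, limma), where miR-221 was at -0.08 and did not pass. This call of miR-20a was lost with the percentile over all probes and without scaling. The miRNAs were not tested against each other. MiR-345-5p differed between the diets before PHx by -0.16, which did not pass, and rose by 0.67 at 24 h.

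**Figure D5:**
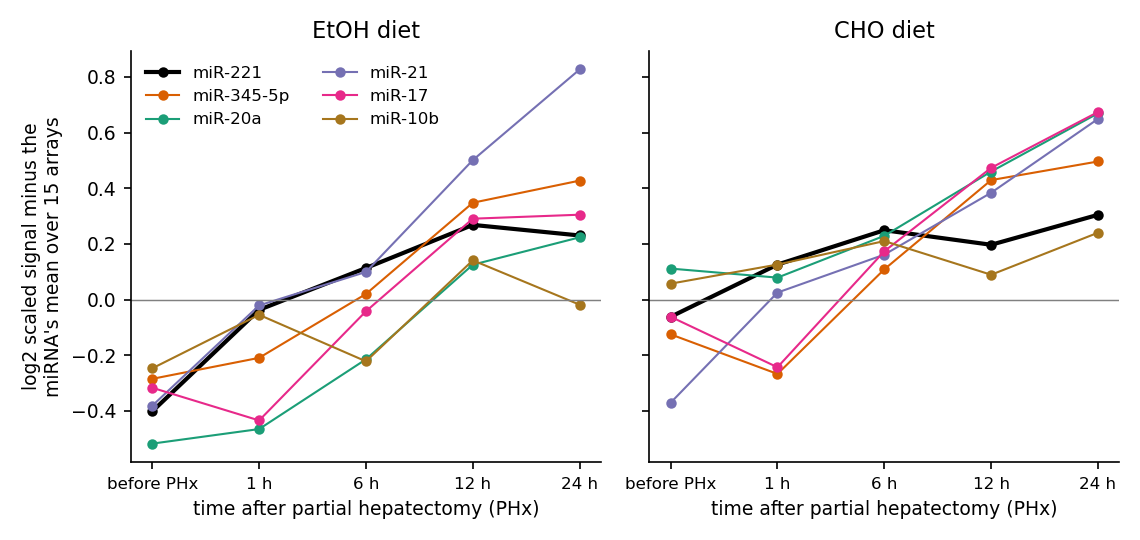
Log2 scaled signal of miR-221 and the 5 miRNAs most correlated with it, each as the difference from its own mean over the 15 arrays, by time after PHx in EtOH (left) and CHO livers (right); points before PHx are means of 3 EtOH and 4 CHO arrays and the others single arrays. In EtOH livers all 6 lie below their own mean before PHx, and in CHO livers miR-20a and miR-10b lie above it.

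Other miRNAs reported, mostly in human or mouse cells, to act on the Cdk inhibitors p21, p27 or p57 were followed as a list of 10: miR-17, miR-20a, miR-20b-5p, miR-24, miR-25, miR-92b, miR-93, miR-106b, miR-181a and miR-196a. Of these 8 were tested, and miR-20b-5p and miR-92b were detected in no group. At 24 h after PHx 4 of the 8 rose and 0 fell: miR-17 by 0.68, miR-20a by 0.65, miR-106b by 0.51 and miR-93 by 0.45 on the log2 scale, with adjusted p from 6.94e-05 to 0.0211. Their list had a median of 0.33, beside 0.02 over all 134, where 13.4% passed. At 12 h miR-17 and miR-20a rose, 2 of 8, beside 5.97% of all miRNAs. At 1 h and 6 h 0 of 8 passed, beside 0% and 4.48%. At 6 h miR-17 (0.26) and miR-20a (0.21) each had an adjusted p of 0.0896 (limma), and miR-221 passed. Whether miR-221 changes earlier than these miRNAs was not tested. Before PHx miR-17, miR-20a and miR-106b were lower in EtOH than in CHO, 3 of 8, beside 15.7% of all miRNAs. MiR-20a was the 1 of 8 that passed with the percentile over all probes and under quantile normalization, and without scaling 6 of 8 passed, where 76 of all 134 were lower. The 4 that rose belong to the related miR-17-92 and miR-106b-25 clusters and are not independent of each other. For the rise, quantile normalization left 2 of 8 at 24 h and 0 at 12 h. Of all 134, 7 and 3 were called higher there. With the percentile over all probes 3 passed at 24 h and 0 at 12 h, beside 11 and 2 of all 134. Without scaling 2 passed at 24 h and 1 at 12 h, beside 6 and 9 of all 134.

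A list of 8 miRNAs studied in liver regeneration (miR-21, miR-23b, miR-26a, miR-33, miR-34a, miR-122, miR-127 and miR-378) had 6 tested members, and miR-33 and miR-127 were detected in no group. MiR-21 rose by 0.51 at 6 h, 0.82 at 12 h and 1.11 at 24 h, beside 0.41, 0.46 and 0.50 for miR-221, and these differences between the miRNAs were not tested. The 6 h call of miR-21 was lost with the percentile over all probes, under quantile normalization and without scaling, and the 12 h call with the percentile over all probes. Its 24 h call held under all 3. MiR-34a, a target of p53, rose by 1.20 at 24 h (adjusted p 0.0144), a call lost under quantile normalization. The other 4 did not pass at any time. That is 1 of 6 at 6 h and at 12 h and 2 of 6 at 24 h, beside 4.48%, 5.97% and 13.4% of all miRNAs. For diet after PHx miR-34a was the 1 of 6 that passed, higher in EtOH by 0.95 (adjusted p 0.0416, limma), beside 7.46%. This diet call was lost under quantile normalization and without scaling.

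Markers of the cell types that liver holds were followed beside miR-221. The hepatocyte miRNAs miR-122, miR-192 and miR-194 were detected in every group, as liver tissue has them, and 0 of 3 passed for diet before PHx or at any time. Their summed scaled signal was 35965 to 41952 in EtOH and 36154 to 42878 in CHO livers before PHx. MiR-221 is known to be abundant in endothelial cells, and the endothelial strands miR-126 and miR-126* summed to 1064 to 1133 in EtOH and 1210 to 1300 in CHO livers before PHx. These sums did not overlap, as with miR-221, although 0 of 2 passed in the fit (-0.18 and -0.24). After PHx they summed to 1032 to 1236 in EtOH and 1172 to 1293 in CHO, and 0 of 2 passed at any time or for the mean over times (0.02 and 0.05, against 0.41 for miR-221).

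The stellate and mesenchymal list summed to 622 to 699 in EtOH and 691 to 744 in CHO livers before PHx. Of its 6 members 1, miR-152, passed for diet before PHx, higher in EtOH by 0.36, beside 15.7% of all miRNAs, and 0 passed at any time. MiR-145 (0.24) had the same sign. The other 4 had values below 0 that did not pass, at -0.47 for miR-199a-3p (adjusted p 0.0534), -0.37 for miR-199a-5p, -0.24 for miR-143 and -0.08 for miR-214. The list's median was -0.16, beside -0.08 over all miRNAs and -0.34 for miR-221. Of the leukocyte list 4 of 5 members on the array were tested. MiR-142-3p was lower in EtOH before PHx by 0.50, 1 of 4, beside 15.7% of all miRNAs, and did not pass with the percentile over all probes or under quantile normalization. The rest did not pass for diet before PHx, at -0.38 for miR-150, -0.11 for miR-146a and 0.03 for miR-223. The myeloid miR-223 rose by 0.67 at 6 h, 0.92 at 12 h and 0.60 at 24 h. That is 1 of 4 at each time, beside 4.48%, 5.97% and 13.4% of all miRNAs. The other 3 leukocyte miRNAs passed at no time. For the mean of the times they differed from before PHx by -0.02 for miR-142-3p, -0.12 for miR-150 and 0.06 for miR-146a, beside 0.56 for miR-223. The list's median was 0.18 at 6 h, -0.04 at 12 h and -0.03 at 24 h. The leukocyte sum was 303 to 320 in EtOH and 330 to 374 in CHO livers before PHx. After PHx it was 339 to 373 in EtOH and 324 to 451 in CHO.

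In the list for biliary and other epithelium, miR-200a and miR-200b, 2 of the 3 that were tested, were lower in EtOH before PHx by 0.45 and 0.57, where 15.7% of all miRNAs passed. Neither passed with the percentile over all probes or under quantile normalization. MiR-429 differed by -0.08 and did not pass. The list's sum was 68.3 to 77.9 in EtOH and 87.3 to 102 in CHO livers before PHx, and miR-200c and miR-141 were detected in no group. In all sums of marker lists a signal below the floor of 9.61 counted as 9.61, also for members detected in no group. The erythroid miR-451 and miR-144 summed to 629 to 899 in EtOH and 621 to 1230 in CHO livers before PHx, and 0 of 2 passed for diet before PHx or at any time. The endothelial, leukocyte and epithelial sums before PHx were lower in every EtOH array than in every CHO array, as miR-221 was. After PHx miR-223 was the 1 of 4 tested leukocyte miRNAs that passed, beside 4.48% to 13.4% of all miRNAs at 6 to 24 h. The endothelial and hepatocyte miRNAs did not pass. The part of these cell types in the miR-221 differences was not tested.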

How the data were processed

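RNA from pooled livers was labelled with Cy3 and hybridised to Agilent miRNA arrays, per the labels' protocols. The deposited scanner files hold spot intensity on a linear scale with background subtracted, per the file headers (Feature Extraction 10.5.1.1). The version is 10.7.3.1 in the submitters' processing notes. The processed and background-subtracted signals differed by a relative 5e-06 at most. A table the authors deposited gives log2 values per miRNA and array, with column medians of 0.106 to 1.10. The sources used here do not give its method, centring and scale. Within arrays it followed total signal with a Spearman correlation of 0.930 to 0.967 across miRNAs. It served as an alternative.

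Outlier spots (2.38%) and control spots were left out. Probe means were scaled to the 75th percentile over 185 probes, floored at 9.61 (3.26 in log2) and put on the log2 scale. Each miRNA was represented by its brightest probe on average. The R package limma 3.58.1 (R 4.3.3, lmFit and eBayes, two-sided) was run on the 15 arrays. The model held diet separately before and after PHx plus the times (8 residual degrees of freedom), or the 10 cells of diet and time (5). Tests ran on 134 miRNAs, and 216 were untested. The number of arrays limits the precision. The median SE was 0.11 for diet before PHx and 0.12 for a single time.

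Pools before and after PHx are paired by the animal identifiers in the labels. The fits ran without this block, and with it as an alternative. Other alternatives were scalings, background corrections, summaries, filters and slides, and each array left out. Normexp used the median spot signal, since the scanner files used here have no mean signal. The members, lists and alternatives were chosen with earlier results of these data known. The text names the pair, the 5 miRNAs with the highest correlation, miRNAs with the seed of the pair, and list members as examples. Of the marker lists, miR-148a and miR-155 were not found among the array's names. Sequences are from RefSeq (GRCr8). Probe sequences were not used here.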

Additional observations from a re-analysis of the deposited data

How the results depend on the processing

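The rise of miR-221 averaged over the times after PHx passed under 17 of 19 other settings, and the lower level in EtOH before PHx under 14 of 20. Array number and the low signal of miR-221 limit both, and miR-222 stayed undetected under all 4 other settings. Settings that changed only the filter, the outlier spots or the eBayes options kept the same scaling. The counts of settings are therefore not separate pieces of evidence. Values below are log2 differences that left their side of the threshold or turned their sign.

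Scaling to a percentile over all probes gave different values: diet before PHx was -0.28, diet after PHx 0.17, 6 h minus before 0.28, 12 h minus before 0.25 and 12 h minus 6 h -0.025. In the cell fit, EtOH 12 h was 0.59, EtOH 24 h 0.78 and CHO 12 h -0.081 against the same diet before PHx, and EtOH minus CHO was 0.0056 at 1 h, 0.12 at 6 h and 0.18 at 24 h. Under quantile normalization, diet after PHx was 0.082, 6 h 0.25, 12 h 0.28, EtOH 12 h 0.60, EtOH 24 h 0.58 and CHO 12 h -0.043, EtOH minus CHO was 0.024 at 6 h and 0.061 at 24 h, and the change in the same pool was 0.24. Without scaling, 6 h was 0.38, 12 h 0.67 and 24 h 0.62, 6 h minus 1 h -0.11, 24 h minus 12 h -0.053, EtOH 12 h 1.14, EtOH 24 h 1.21 and EtOH minus CHO at 24 h 0.33. There the median of all 134 miRNAs for diet before PHx was -0.53, beside -0.08 with scaling, and miR-221 lay 0.34 and 0.26 below it. For the mean of the times miR-221 lay 0.37 above the median of all miRNAs both without scaling and with it. Without scaling 0 miRNAs were higher and 76 lower for diet before PHx, with the percentile over all probes 1 and 1, and under quantile normalization 3 and 7.

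Normexp on the median signal and local background put the negative control spots at 140 on the third EtOH array before PHx and at 688 on the CHO 24 h array, beside 58.5 to 68.9 on the other 13, so its values for contrasts with these 2 arrays are not usable. It gave diet before PHx 0.46, its difference after minus before -0.92, 1 h -0.15, 6 h 0.065, 12 h -0.068, 24 h 0.92, the mean of the times 0.19, 12 h minus 6 h -0.13, and the same pool 0.27. Against EtOH before PHx it gave -0.33, -0.092, -0.28 and -0.35 at 1, 6, 12 and 24 h, for CHO 24 h 2.20, and for EtOH minus CHO 0.092 at 1 h, 0.15 at 6 h and -2.09 at 24 h. With 1 background value per array, an alternative chosen after seeing the data, the negative controls lay at 57.3 to 62.8. The offset of 50 thus makes up much of the miR-221 signal. It was added before scaling, so each array's scale factor divided it too. Diet before PHx turned from -0.34 to 0.20. Before scaling, the corrected miR-221 signal was 72.2 to 80.8 on EtOH arrays before PHx and 91.4 to 97.9 on CHO arrays before PHx. The parts of the scaling and of the offset in the turn of the sign were not tested. Diet before PHx was 0.20, diet after PHx 0.0047, their difference -0.19, 1 h -0.026, 6 h 0.14, 12 h 0.064, 24 h 0.095, the mean of the times 0.068, 12 h minus 6 h -0.075 and the same pool 0.092. Diet before PHx lay there 0.0058 from the median of all miRNAs, which was 0.19, so neither sign is shown for miR-221 apart from the shift of all miRNAs.

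In the authors' deposited table's values, diet before PHx was -0.30, diet after PHx 0.0051, 6 h 0.19, 12 h 0.25, 6 h minus 1 h -0.061, EtOH 12 h 0.47, EtOH 24 h 0.56 and EtOH minus CHO at 1 h 0.071. With total signal per miRNA, 24 h minus 12 h was -0.12 and EtOH 24 h 0.53. With no filter on dim miRNAs 1 h passed at 0.28. With slide as a block, 12 h minus 6 h was -0.038, EtOH 12 h 0.61 and EtOH 24 h 0.57, the last 2 added after seeing the data. Within slides 1 and 2 diet before PHx was -0.32 in each, and within slide 2 12 h was 0.41 and 24 h 0.45. With the pool as a replicate block, 6 h was 0.49, 12 h 0.38, 24 h 0.52 and 12 h minus 6 h -0.11, and with the set of pools of one time label as a replicate block 0.49, 0.38, 0.52 and -0.11. The replicate block changed no other call of miR-221. Diet before or after PHx could not be fitted with the pool as a block that has its own level. With the pool as a random block, where arrays of a pool share a correlation of 0.114, diet before PHx passed and diet after PHx did not. The marker lists were run under the other scalings by a choice made after seeing the data. Where no cause is given above, the cause was not tested.

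With each array left out in turn, diet before PHx lay between -0.39 and -0.26, 6 h between 0.37 and 0.45, 12 h between 0.37 and 0.56, 12 h minus 6 h between -0.047 and 0.15 and 24 h minus 12 h between -0.063 and 0.13. With each array before PHx left out, a choice made after seeing the data, EtOH 12 h lay between 0.59 and 0.72 and EtOH 24 h between 0.56 and 0.68.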
